A study of Homo sapiens with 16 samples.

Results

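The 10 immediate early genes EGR1, EGR3, FOS, FOSL1, JUN, NR4A1, NR4A2, NR4A3, IER2 and IER3 were followed through 16 arrays of 3 human cancer lines with and without working STAG2. STAG2 is X-linked and encodes a subunit of the cohesin complex, which pairs sister chromatids and shapes chromatin loops. The 10 genes were taken by name from the 18417 genes that had a row of their own on the array, each with its row of highest mean. They were chosen with earlier results of these data known, so a share of members beside that of all genes is description only. Of the 10, 8 were tested among 12978 genes that passed a filter on low signal, and EGR3 and NR4A3 did not pass it. Per the labels, H4 and 42MGBA are glioblastoma lines with mutant STAG2 and HCT116 is a colorectal cancer line whose gene is intact. The mutant H4 cultures were the parental cells and 2 non-recombinant clones, 10 and 12, and the post-Cre knock-in clones 8-1, 8-3 and 88-1 were corrected. In 42MGBA, the parental cells were mutant, the pre-Cre knock-in clones 53 and 92 were deficient, and their Cre-treated descendants 53-1, 53-7 and 92-6 carry the label corrected. In HCT116, clones 24 and 27 were non-recombinant and wild-type for STAG2, and clones 7 and 21 were knockouts. All cells grew untreated in serum-containing medium and RNA was taken from subconfluent cultures, so no stimulus was part of the design. Whether feeding or harvest of the cultures changed the levels was not tested. Each array is 1 clone or parental culture, with 3 per group in both brain tumour lines and 2 per group in HCT116, and the number of arrays limits the precision. By their numbers, corrected clones 8-1 and 8-3 share 1 parent clone, as do 53-1 and 53-7, so the arrays of these groups are not fully independent. The p-values reflect the spread of these single cultures, and clones can differ from each other for reasons other than STAG2.

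Immediate early genes are transcribed within minutes of a growth factor, serum or stress signal, without the need for new protein. ERK and other kinases act on transcription factors already bound at their promoters, chiefly the serum response factor with its ternary complex partners at CArG boxes and CREB family proteins at cyclic AMP response elements. Most of their products are transcription factors that switch on a later wave of genes, and their RNAs are short-lived. Of the genes studied here, EGR1 and EGR3 encode zinc-finger factors, FOS, FOSL1 and JUN encode the partners of the AP-1 dimer, NR4A1, NR4A2 and NR4A3 encode orphan nuclear receptors, IER2 encodes a nuclear protein of the early response and IER3 encodes a regulator of survival under stress.

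The promoters of EGR1, FOS, JUN, NR4A3 and IER2 are shown so that the response elements named above can be looked for in the members that the promoter table holds with 1 start. The sequences are those of RefSeq, assembly GRCh38.p14, and run 5′ to 3′ over the 140 bases before the annotated gene start; capitals mark CArG boxes, TGACG in either orientation (the core of the cyclic AMP response element), TGACNTCA and TATAAA. EGR1 lies on the plus strand at chr5:138465339-138465478, FOS on the plus strand at chr14:75278688-75278827, JUN on the minus strand at chr1:58784048-58784187, NR4A3 on the plus strand at chr9:99821745-99821884 and IER2 on the plus strand at chr19:13150271-13150410.
EGR1: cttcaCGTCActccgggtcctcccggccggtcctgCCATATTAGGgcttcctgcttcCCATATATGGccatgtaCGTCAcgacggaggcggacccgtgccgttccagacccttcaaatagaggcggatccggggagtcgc
FOS: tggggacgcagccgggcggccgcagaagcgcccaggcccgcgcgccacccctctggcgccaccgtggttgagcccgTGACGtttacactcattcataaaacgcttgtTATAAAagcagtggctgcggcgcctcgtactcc
JUN: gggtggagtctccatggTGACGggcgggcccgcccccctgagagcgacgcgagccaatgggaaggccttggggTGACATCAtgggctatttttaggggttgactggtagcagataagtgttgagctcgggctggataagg
NR4A3: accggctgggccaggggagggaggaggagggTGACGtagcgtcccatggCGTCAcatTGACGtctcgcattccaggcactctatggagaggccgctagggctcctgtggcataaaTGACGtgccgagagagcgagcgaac
IER2: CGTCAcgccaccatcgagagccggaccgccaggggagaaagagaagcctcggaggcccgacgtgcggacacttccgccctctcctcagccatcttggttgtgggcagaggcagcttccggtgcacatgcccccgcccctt

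The EGR1 window held 2 CArG boxes, which began 105 and 83 bases before the gene start, and the other 4 windows held none. Only these 140 bases were searched, so a CArG box farther upstream, in FOS or another member, would not be seen. A CArG box was present in 0.749% of 35114 RefSeq promoter windows of the same length. TGACG in either orientation was present in 14.7% of all windows, and it occurred 4 times in the NR4A3 window, 2 times in that of EGR1 and 1 time each in those of FOS, JUN and IER2. The FOS window had TGACG 64 bases and TATAAA 33 bases before the start; TATAAA was present in 4.30% of all windows. The JUN window held TGACATCA 67 bases before the start, a match to TGACNTCA, which 5.20% of all windows contained on either strand. NR4A1 has more than 1 start in the table and held none of these motifs in its windows. The table has no entry for EGR3, FOSL1, NR4A2 and IER3. A match describes the letters in the window and does not show that a factor was bound there in these cells.

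STAG2 itself separated the groups in 2 of the 3 lines. Its RMA log2 value lay between 6.57 and 6.96 in mutant H4 and between 8.87 and 8.95 in corrected H4 arrays, and at 6.57 and 7.14 in the HCT116 knockouts against 9.28 and 9.30 in the wild-type clones. In 42MGBA it lay between 4.75 and 5.60 in the arrays labelled deficient and between 5.41 and 5.65 in those labelled corrected, and the groups overlapped, so a direction within 42MGBA rests on the labels alone. The 42MGBA arrays were on a lower scale, with medians of 5.001 to 5.047 against 6.23 to 6.30 in H4 and 6.24 to 6.29 in HCT116, and levels are therefore compared with 42MGBA only as percentiles among the 33297 rows of an array. The epithelial markers EPCAM (mean percentile 97.0) and CDH1 (80.6) were high in HCT116 and low in H4 (21.71 and 21.97) and 42MGBA (26.33 and 25.03), and 11 of 18 colorectal epithelial markers lay above the 50th percentile in HCT116 against 6 in each brain tumour line. Neural and glial markers set the lines apart less, with 5 of 14 above that percentile in H4, 7 in 42MGBA and 4 in HCT116; vimentin, VIM, stood at 96.3, 98.7 and 39.3, and CD44 stood above 95 in all of them. GFAP, OLIG2, S100B, SOX2, FABP7, PTPRZ1 and CHI3L1 lay under the 50th percentile in all 3 lines, and SLC1A3 (64.3, 67.4 and 69.5) and OLIG1 (56.3, 71.6 and 56.5) above it in all 3.

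The genes differed in where they stood in growing cells. EGR1, FOSL1, JUN, NR4A1 and IER2 lay above the array median in all 16 arrays. FOS and IER3 did so in the 10 arrays of H4 and HCT116 and in none of 42MGBA, NR4A2 only in the 4 arrays of HCT116, and EGR3 and NR4A3 in none. EGR3 lay between 5.32 and 5.61 in HCT116, 5.10 and 5.38 in H4 and 3.52 and 4.05 in 42MGBA. NR4A3 lay between 4.79 and 4.999 in H4, 4.34 and 4.60 in 42MGBA and 4.87 and 5.16 in HCT116. Detection above background was not called for these rows, and whether the lower values hold signal was not tested.

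**Figure D1:**
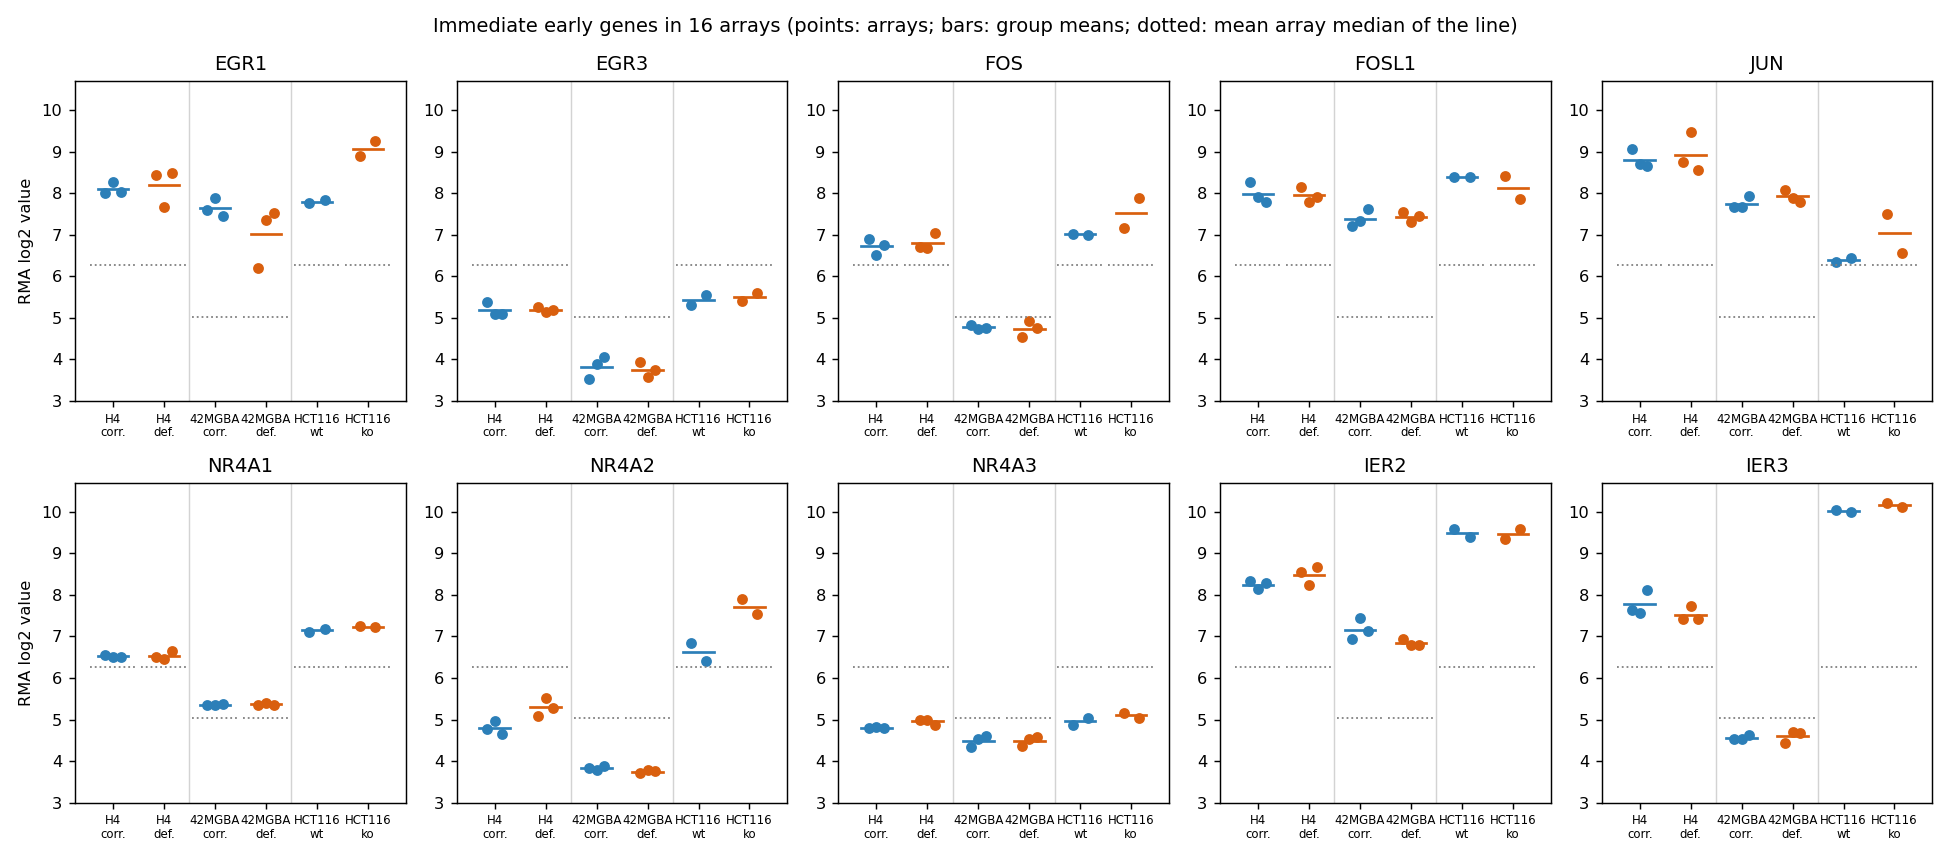
RMA log2 values (vertical axis) of the 10 genes in the 6 groups (horizontal axis), 1 panel per gene, with a point per array and a bar at the group mean; blue marks corrected or wild-type and orange mutant, deficient or knockout cells, and the dotted line is the mean array median of the line. NR4A2 lies above the median only in HCT116, and the 42MGBA arrays are on a lower scale.

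JUN was lowest in HCT116, where IER3, NR4A2, IER2 and NR4A1 were highest. Its values lay between 8.55 and 9.48 in the 6 H4 arrays, between 7.66 and 8.08 in the 6 42MGBA arrays and between 6.35 and 7.50 in the 4 HCT116 arrays. As percentiles these are 80.1 to 88.5, 87.7 to 90.7 and 51.4 to 68.0, so that HCT116 was lowest without overlap while H4 and 42MGBA overlapped. IER3 had the opposite order, at percentile 92.1 to 93.2 in HCT116, 66.7 to 74.6 in H4 and 40.6 to 45.3 in 42MGBA, with no overlap between any of the lines. NR4A2 lay at percentile 52.2 to 72.7 in HCT116 and at 26.5 to 39.4 in H4, where the 42MGBA arrays, at 30.3 to 32.8, also lay. FOS was at 60.8 to 72.7 in HCT116, 53.5 to 61.8 in H4 and 42.5 to 48.9 in 42MGBA. IER2 was highest in HCT116, at 87.8 to 90.01, against 75.3 to 81.3 in H4 and 78.7 to 85.5 in 42MGBA, and NR4A1 was too, at 62.6 to 64.6 against 53.4 to 55.8 and 54.8 to 56.1. EGR1 overlapped between all lines, at 69.4 to 79.5 in H4, 69.0 to 89.5 in 42MGBA and 71.1 to 87.4 in HCT116. FOSL1 was highest in 42MGBA, at 83.4 to 87.3, with H4 at 70.8 to 76.9 and HCT116 at 72.5 to 78.5 overlapping.

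**Figure D2:**
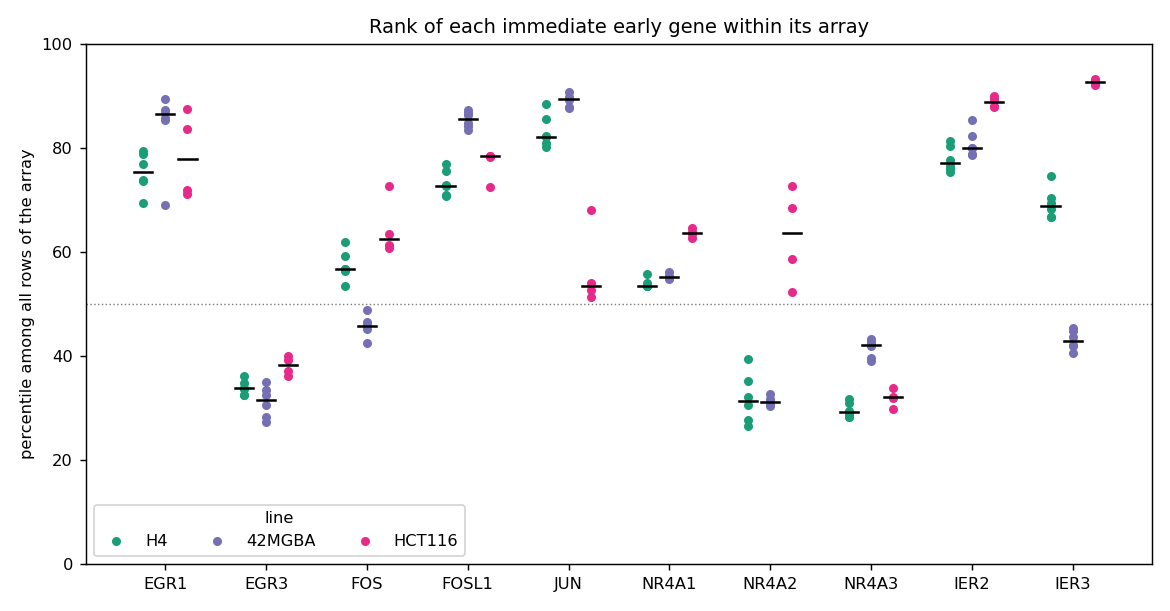
Percentile of each gene among all rows of its array (vertical axis) by gene (horizontal axis) and line (colour), with a point per array and a black bar at the median of the line; the dotted line is the 50th percentile. JUN is lowest and IER3 highest in HCT116, each without overlap with the other lines.

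The H4 and HCT116 arrays are on 1 scale, with mean quantiles that differed by at most 0.05, and the lines were compared in their STAG2-proficient groups. All tests across genes used limma with Benjamini-Hochberg adjustment over the 12978 genes and a threshold of 0.05. JUN was 5.29-fold higher in corrected H4 than in wild-type HCT116 cells (log2 difference 2.40, SE 0.26, adjusted p = 2.25e-06), with 8.80 ± 0.22 (SD, n = 3) against 6.40 ± 0.07 (SD, n = 2). IER3 was 4.73-fold lower in H4 (-2.24, SE 0.15, adjusted p = 1.11e-08), IER2 2.37-fold lower (-1.24, SE 0.15, adjusted p = 6.66e-06) and NR4A1 1.53-fold lower (-0.62, SE 0.08, adjusted p = 1.93e-05). EGR1 (0.30, 95% interval -0.38 to 0.98), FOS (-0.28, -0.67 to 0.11) and FOSL1 (-0.40, -0.78 to -0.03) did not pass. The 4 that differed of these 7 members stand beside 52.7% of all genes tested, which is near the share among the members, and line and tissue cannot be told apart. NR4A2 passed the filter only through the HCT116 arrays, where it is high, so its level is given without a test, at 4.80 ± 0.16 (SD, n = 3) in corrected H4, under the array median, and 6.63 ± 0.30 (SD, n = 2) in wild-type HCT116 cells.

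In HCT116, NR4A2 was higher in the STAG2 knockout clones than in the wild-type clones, and its call depended on the fit. Its values were 6.84 and 6.42 in wild-type clones 24 and 27 and 7.89 and 7.54 in knockout clones 7 and 21, so that both knockouts lay above both wild-type clones. The mean was 6.63 ± 0.30 (SD, n = 2) in wild-type and 7.72 ± 0.25 (SD, n = 2) in knockout cells, 2.13-fold higher in the knockouts (log2 difference 1.09, SE 0.17, 95% interval 0.73 to 1.44, limma adjusted p = 0.0129). This SE comes from all 3 lines, and with HCT116 fitted alone it was 0.19. The SD of NR4A2 in 42MGBA, at low signal, was 0.03 in deficient and 0.06 in corrected arrays. In H4, also at low signal, it was 0.22 in mutant and 0.16 in corrected arrays. NR4A2 was the member called of 8 tested, against 0.131% of all genes tested, and stood at place 10 by p and place 32 by size among the 12978 genes. In percentiles it moved from 55.5 to 70.6 on average. NR4A1, another receptor of the family, stood at 7.11 and 7.18 against 7.24 and 7.22 (0.09, 95% interval -0.11 to 0.28, adjusted p = 0.861). NR4A3 stood at 4.87 and 5.04 against 5.16 and 5.04. The call for NR4A2 was lost without wild-type clone 27 (0.88, adjusted p = 0.198), without knockout clone 7 (0.91, adjusted p = 0.0518) and when HCT116 was fitted alone (adjusted p = 0.558). Over its 11 alternatives the adjusted p ran from 0.00627 to 0.558 and the difference from 0.88 to 1.30.

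EGR1 had the largest difference among the members in HCT116 but did not pass the test. Its values were 7.77 and 7.83 in the wild-type clones and 8.89 and 9.25 in knockout clones 7 and 21, so that both knockouts lay above both wild-type clones. The difference was 1.27 (SE 0.35, 95% interval 0.52 to 2.01, adjusted p = 0.311), which is 2.41-fold and place 21 by size among all genes tested. The SE comes from all 3 lines, and the SD of EGR1 was 0.26 (n = 2) in knockout and 0.04 (n = 2) in wild-type HCT116 cells, against 0.73 (n = 3) in the deficient 42MGBA arrays. Over 11 alternatives the adjusted p of EGR1 ran from 0.0771 to 0.824.

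FOS and JUN, the classic AP-1 pair, were each high in a different knockout clone. FOS stood at 7.03 and 6.99 in wild-type clones 24 and 27 and at 7.17 and 7.88 in knockout clones 7 and 21, a difference of 0.51 (SE 0.20, 95% interval 0.09 to 0.94, adjusted p = 0.554). JUN stood at 6.35 and 6.45 in the wild-type clones and at 7.50 and 6.56 in clones 7 and 21, a difference of 0.63 (SE 0.29, 95% interval 0.02 to 1.24, adjusted p = 0.625). Clone 7 was thus 1.10 above the wild-type mean in JUN and 0.16 in FOS, and clone 21 was 0.16 above it in JUN and 0.87 in FOS. In NR4A2 the same clones were 1.26 and 0.91 above the wild-type mean, and in EGR1 1.09 and 1.45, so both knockouts shared the direction in these genes and differed in size. FOSL1, a FOS relative that lasts longer after a stimulus, stood at 8.39, 8.40 and 8.40 in clones 24, 27 and 7 and at 7.86 in clone 21 (-0.26, 95% interval -0.67 to 0.15, adjusted p = 0.795).

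IER2 and IER3 had small differences with STAG2 in HCT116 and did not pass the test. IER2 stood at 9.58 and 9.40 in wild-type and 9.35 and 9.59 in knockout clones (-0.02, 95% interval -0.38 to 0.33, adjusted p = 0.993), with overlap between the groups. IER3 stood at 10.04 and 9.99 against 10.21 and 10.11 (0.14, 95% interval -0.21 to 0.50, adjusted p = 0.886). IER3 was represented by 3 rows, which differed by at most 0.29 and gave the same order of arrays to within r of 0.9997. Counted over the 10 members, 6 had groups that did not overlap in HCT116, all higher in the knockouts, beside 40.7% of the genes tested that did not overlap in either direction. At an unadjusted p under 0.05, 4 of 8 tested members stood beside 7.83% of all genes. The median difference of the 8 was 0.33 against -0.01 over all genes tested. Since the members were chosen with earlier results of these data known, these shares and medians are no independent support for a rise of the class.

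**Figure D3:**
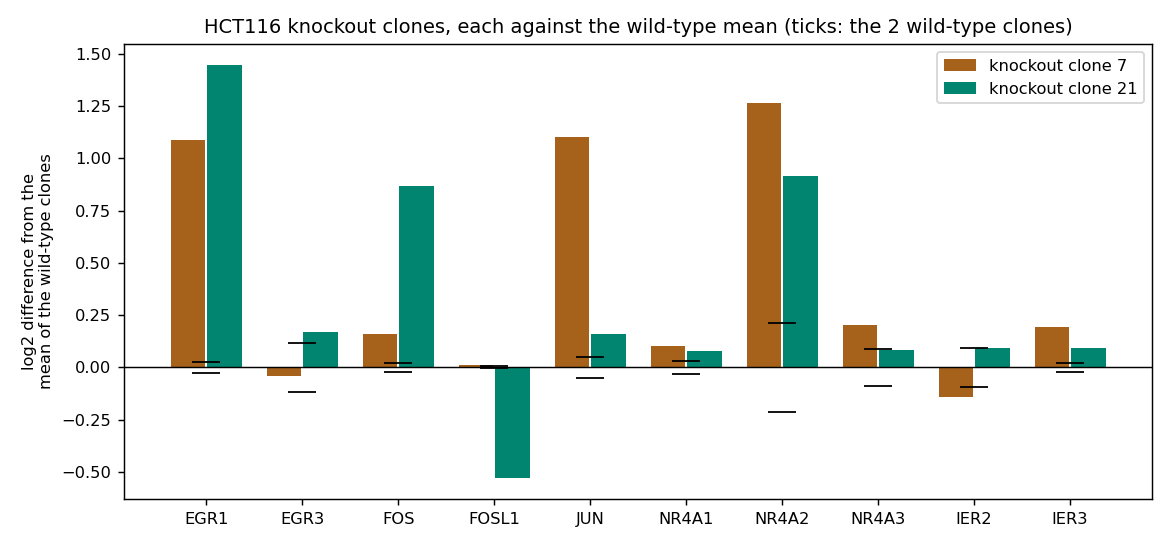
Log2 difference of HCT116 knockout clones 7 and 21 from the mean of the 2 wild-type clones (vertical axis) for each of the 10 genes (horizontal axis), with 1 bar per knockout clone from 0 and black ticks at the 2 wild-type clones. NR4A2 and EGR1 are high in both clones, JUN is high in clone 7 and FOS in clone 21.

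In H4, NR4A2 was the member with the largest difference, and it missed the threshold. Its values were 5.08, 5.52 and 5.29 in the parental cells and mutant clones 10 and 12 and 4.77, 4.96 and 4.65 in corrected clones 8-1, 8-3 and 88-1. The lowest mutant value lay above the highest corrected one. The means were 5.30 ± 0.22 (SD, n = 3) and 4.80 ± 0.16 (SD, n = 3), a 1.42-fold difference (log2 0.50, SE 0.14, 95% interval 0.21 to 0.79, limma adjusted p = 0.0581). Without the parental array the difference was 0.61 with an adjusted p of 0.0269, and over 13 alternatives the adjusted p ran from 0.0269 to 0.187. All 6 values lie under the array median, and NR4A2 entered the test only through the HCT116 arrays. These adjusted p-values for H4 thus rest on low signal and cannot decide whether NR4A2 differs there. In H4, 0 of 8 tested members were called, beside 3.31% of all genes tested.

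The other members of H4 lay close together in mutant and corrected cells. EGR1 stood at 8.43, 7.66 and 8.50 against 7.99, 8.27 and 8.03 (0.10, 95% interval -0.51 to 0.71, adjusted p = 0.914), so that clone 10 was the lowest of all 6. FOS stood at 6.71, 6.67 and 7.05 against 6.90, 6.52 and 6.75 (0.09, 95% interval -0.26 to 0.44). JUN stood at 8.74, 9.48 and 8.55 against 9.06, 8.71 and 8.65 (0.12, 95% interval -0.38 to 0.62), with clone 10 the highest. IER2 differed by 0.24 (SE 0.13, adjusted p = 0.412), IER3 by -0.25 (SE 0.13, adjusted p = 0.390), FOSL1 by -0.04 and NR4A1 by 0.01. NR4A3 stood at 4.992, 4.999 and 4.868 against 4.80, 4.82 and 4.79, which did not overlap; in a fit without the filter it differed by 0.15 (adjusted p = 0.551). NR4A2 and NR4A3 were the 2 members of 10 whose groups did not overlap in H4, beside 20.8% of the genes tested. At an unadjusted p under 0.05, 1 of 8 members stood beside 16.4% of all genes, and the median difference was 0.09 against 0.02.

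In 42MGBA no member passed the test, as no gene did: 0% of the 12978 genes were called, and 512 had an unadjusted p under 0.05. EGR1 stood at 6.19 in the parental cells, 7.36 and 7.53 in clones 53 and 92 and 7.60, 7.89 and 7.45 in the arrays labelled corrected. The difference of -0.62 (SE 0.28, 95% interval -1.23 to -0.01, adjusted p = 1.00) was -0.21 without the parental array. IER2 stood at 6.94, 6.79 and 6.80 against 6.93, 7.43 and 7.13 (-0.32, SE 0.13, 95% interval -0.61 to -0.03, adjusted p = 1.00), and the groups overlap through the parental array. By clone, 53-1 and 53-7 were higher than their parent clone 53 and 92-6 was higher than clone 92; with the parent clone as a replicate block the difference was -0.36 (SE 0.16, adjusted p = 0.715). NR4A2 stood at 3.71, 3.78 and 3.75 against 3.82, 3.78 and 3.89 (-0.08, 95% interval -0.37 to 0.21). JUN differed by 0.17 (95% interval -0.33 to 0.67), FOS by -0.04 (-0.39 to 0.31), FOSL1 by 0.05 (-0.29 to 0.38), IER3 by 0.04 (-0.25 to 0.32) and NR4A1 by 0.00 (-0.15 to 0.16). NR4A2, FOS and IER3 lay under the array median in every 42MGBA array, so their small differences come from low signal. None of the 10 members had groups that did not overlap, beside 8.91% of the genes tested, and 2 of 8 had an unadjusted p under 0.05 beside 3.95%. The median difference was -0.02 against -0.03.

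**Figure D4:**
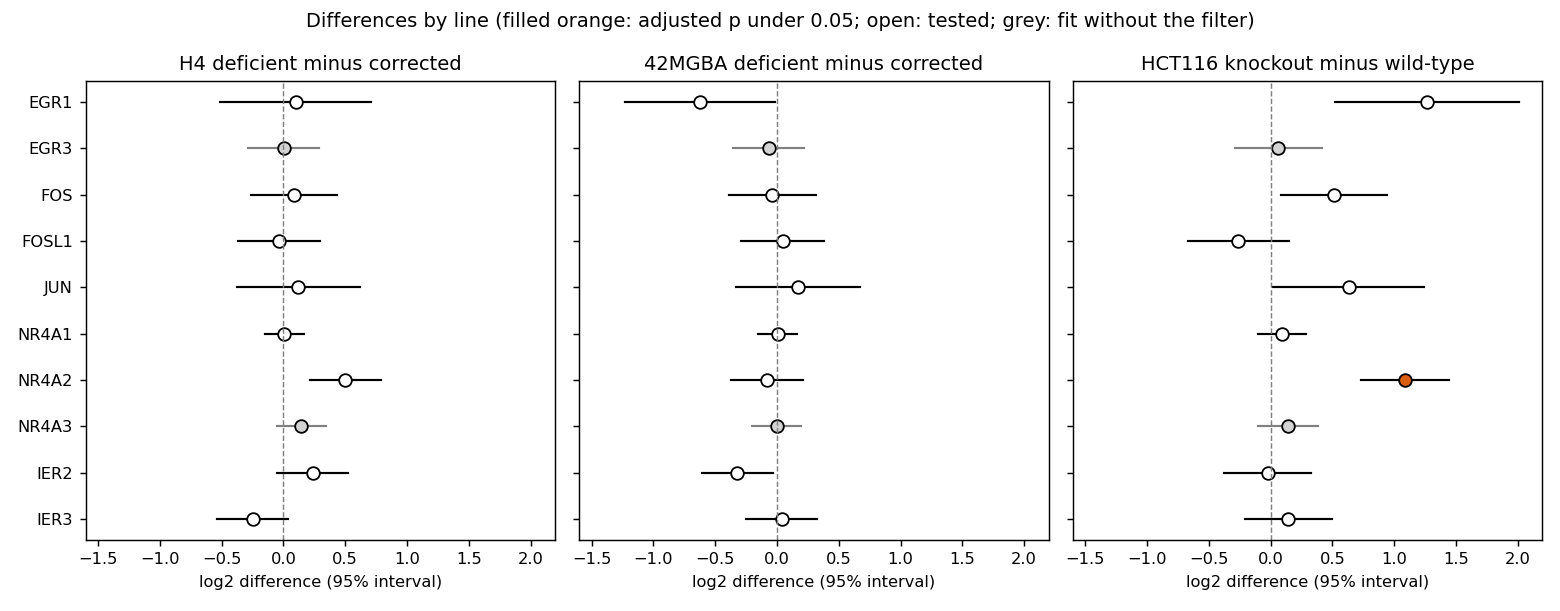
Log2 difference of STAG2-deficient minus proficient cells (horizontal axis) with its 95% interval for the 10 genes (vertical axis), 1 panel each for H4, 42MGBA and HCT116; open points were tested and did not pass, the filled orange point passed the adjusted threshold, and grey points are from the fit without the filter. NR4A2 in HCT116 (1.09) is the one orange point.

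Averaged over the 3 lines with equal weight, the NR4A2 difference was 1.42-fold, higher in deficient cells (log2 0.50, SE 0.08, 95% interval 0.32 to 0.68, limma adjusted p = 0.0266), where 0.139% of all genes were called. NR4A2 passed the filter only through the 4 HCT116 arrays and lay under the median in the other 12, so the H4 and 42MGBA parts of this mean come from low signal. The adjusted p of this mean therefore cannot decide whether NR4A2 differs beyond HCT116. Without the filter the adjusted p was 0.0327. The mean is made of 0.50 in H4, -0.08 in 42MGBA and 1.09 in HCT116. Most of its size thus comes from HCT116, and it is not a rise shared by all 3 lines. It shares all its arrays with those comparisons. The call held in 5 of 16 fits that left out 1 array, namely the H4 parental cells, H4 clone 10, H4 clone 8-3, HCT116 clone 24 and HCT116 clone 21, and was lost without any of the other 11, with adjusted p from 0.0121 to 0.160. It was also lost with the parent clone of 42MGBA as a replicate block (0.51, adjusted p = 0.0835). JUN (0.31, adjusted p = 0.515), EGR1 (0.25, adjusted p = 0.707) and FOS (0.19, adjusted p = 0.580) did not pass.

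No member, NR4A2 included, passed the test of a difference in STAG2 effect between lines. The share of all genes called was 0.293% for H4 minus HCT116, 0.254% for H4 minus 42MGBA and 0.0231% for 42MGBA minus HCT116. NR4A2 passed the filter only through the HCT116 arrays and lay under the array median in H4 and 42MGBA. Its smaller effects there cannot be told apart from low signal. The NR4A2 differences between lines are therefore given without p-values, and no conclusion is drawn from them. The NR4A2 effect in H4 minus that in HCT116 was -0.59 (SE 0.21), and minus that in 42MGBA it was 0.58 (SE 0.19). The 42MGBA effect minus that of HCT116 was -1.17 (SE 0.21), and ran from -1.38 to -0.96 with 1 array left out. For EGR1 the 42MGBA effect minus that of HCT116 was -1.89 (SE 0.45, adjusted p = 0.441) and the H4 effect minus that of HCT116 was -1.17 (SE 0.45, adjusted p = 0.269).

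Other genes of the same pathway were followed in 4 lists. Of 36 tested further immediate early and AP-1 genes, 1 rose and 1 fell in H4, where 3.31% of all genes tested were called, a share that 2 of 36 is near: DUSP2, a nuclear phosphatase of ERK, by 0.58 (SE 0.13, adjusted p = 0.0287), and the kinase gene PIM1, which fell by 0.83 (SE 0.14, adjusted p = 0.00490). The DUSP2 call was lost in 7 of its 13 alternatives. In 42MGBA and HCT116 none of the 36 passed, and the smallest p belonged to PHLDA1 (-0.69) and to the cytokine gene LIF (-1.26, SE 0.30, adjusted p = 0.184). Of 18 tested regulators of the serum response and CREB, MRTFB, a coactivator of serum response factor, fell by 0.36 in H4 (SE 0.09, adjusted p = 0.0363) and lost the call in 8 of 13 alternatives, and none passed in the other lines, where CRTC2 (-0.24) and NAB1 (-0.44) had the smallest p. The medians of these lists lay between -0.06 and 0.07 in the 3 lines.

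Of 21 tested ERK feedback and delayed early genes, 2 rose in H4, beside 3.31% of all genes called there: ETV1, an ETS factor, by 0.79 (SE 0.14, adjusted p = 0.00898), and SPRY2, an inhibitor of receptor signalling to ERK, by 0.94 (SE 0.18, adjusted p = 0.0108). In 42MGBA none passed, and 3 of 21 differences were positive, against 39.7% of all genes tested, with a median of -0.17 against -0.03; ETV4 (-0.51) and ETV5 (-0.63) had the smallest p. In HCT116 none passed; the ERK phosphatase DUSP6 differed by 0.93 (SE 0.32, adjusted p = 0.485) and PLAU by -0.84 (SE 0.28, adjusted p = 0.485). Of 13 tested AP-1 targets, 3 rose in H4, where 3.31% of all genes were called, the protease gene MMP3 by 3.73 (SE 0.47, adjusted p = 0.000779), the cyclooxygenase gene PTGS2 by 1.97 (SE 0.32, adjusted p = 0.00490) and LOX, for a collagen crosslinking enzyme, by 1.57 (SE 0.30, adjusted p = 0.0103). None of them passed in 42MGBA or HCT116. FOS and JUN differed by 0.09 and 0.12 in H4, FOSL1 by -0.04 and FOSB by 0.16. FOSL2 differed by 0.37, JUNB by 0.28 and JUND by 0.23 there, and none of these AP-1 genes passed. The part of AP-1 in the rise of MMP3, PTGS2 and LOX was not tested. Among the cell type markers, NCAM1 fell by 1.25 in H4 (SE 0.32, adjusted p = 0.0487), a call lost in 10 of 13 alternatives, and no epithelial marker passed in any line; CDH1 differed by 0.68 in HCT116 (adjusted p = 0.160). The part of these markers in the results above was not tested.

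Members were compared with each other over the 6 arrays of H4 and of 42MGBA, 45 pairs in each line and 90 in all. Of the pairs, 24 had a positive Pearson r in H4 (median 0.04) and 29 in 42MGBA (median 0.20), and none passed in an exact permutation test after adjustment over the 90. EGR1 and JUN ran opposite in both lines, with r of -0.86 in H4 (exact permutation p = 0.0250, adjusted 0.750; rho -0.77, p = 0.103) and -0.88 in 42MGBA (exact permutation p = 0.00556, adjusted 0.312; rho -0.89, p = 0.0333). Without the 2 arrays farthest from the median of EGR1, r was -0.43 in H4 and -0.87 in 42MGBA. EGR3 and FOSL1 ran together, with r of 0.94 in H4 (exact permutation p = 0.00694, adjusted 0.312; rho 0.94) and 0.86 in 42MGBA (exact permutation p = 0.0389, adjusted 0.857; rho 0.94), and r of 0.38 and 0.58 without the farthest 2 arrays. EGR3 lay under the array median in every array, so this pair rests partly on low signal. The arrays of a line include clones of 1 parent clone, so the points are not fully independent.

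**Figure D5:**
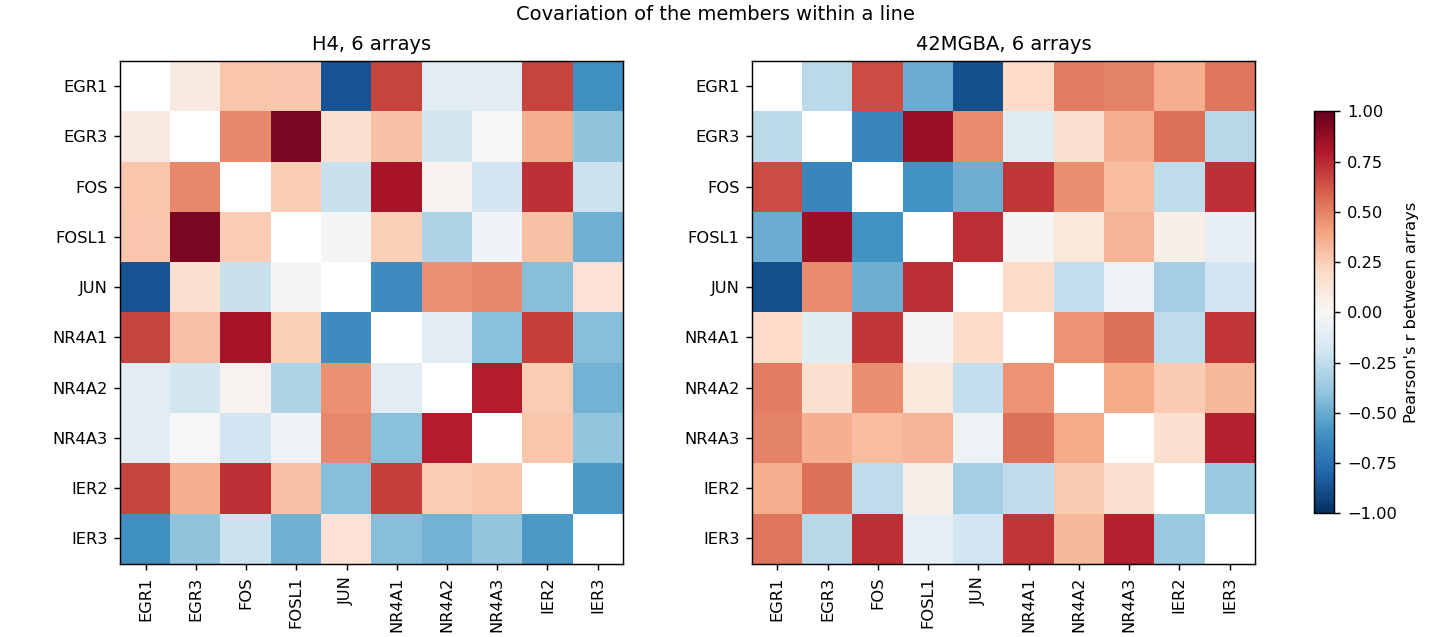
Pearson r between each pair of the 10 genes (rows and columns, colour scale from -1 to 1) over the 6 arrays of H4 and the 6 arrays of 42MGBA. EGR1 and JUN are negative and EGR3 (at low signal) and FOSL1 positive in both lines, and no pair passed after adjustment.

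After centring each line on its own mean, the tested genes most like each member over the 16 arrays were found by Pearson r, as a description. For NR4A2 these were KRCC1 (0.91), LEMD3 (0.88) and GDF15 (0.86), and the member most like it was JUN (0.63). For EGR1 they were MYO1G (0.90), HCRT (0.87) and TOM1L1 (0.86), with FOS (0.64) the nearest member. FOS ran nearest to TMEM63A (0.88), DHRS2 (0.87) and LCN2 (0.86), and JUN to CDKN1A (0.85), PLAT (0.85) and CDH12 (0.84). FOSL1 ran nearest to CCT3 (0.92), UTP15 (0.90) and CPA4 (0.89), and its nearest member was JUN at 0.20. IER2 ran nearest to WDR54 (0.92), MRPL24 (0.91) and NXPH4 (0.89), and IER3 to VPS13D (0.88), FOXK1 (0.86) and NCOA1 (0.86). NR4A1 ran nearest to SLC7A4 (0.86), ZNF788P (0.84) and EXOC3L1 (0.83), and NR4A3, at low signal, to KIRREL2 (0.77), MANEA (0.76) and TAP1 (0.75). EGR3, also at low signal, ran nearest to MED26 (0.91), CREB3L1 (0.85) and NRARP (0.84). For each of the 10 genes, the closest genes of the whole array were more alike than the closest other immediate early gene, whose r lay between 0.20 and 0.64; they were picked from all genes tested and the members from a handful.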

How the data were processed

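Each of 16 cultures was measured once, on an Affymetrix Human Gene 1.0 ST array. The values deposited are log2 expression made by RMA in Affymetrix Expression Console, per the submitters' processing notes; versions, background settings and genome build are not given in the sources used here. Of 33297 rows, 19460 carried 1 gene symbol, 1754 several and 12083 none; symbols were updated through RefSeq. The row of highest mean stood for each of 18417 genes. Genes above the array median on at least 2 arrays (12978) entered 1 model of 6 groups (limma 3.58.1, R 4.3.3), so the SE is shared by all lines. Adjusted p-values are Benjamini-Hochberg over these genes; the steps were tested on simulated data. Arrays of a line correlated at 0.986 or above. 42MGBA was on another scale, so its levels were compared as percentiles. Named were all members, list genes past the threshold (or up to 3 of smallest p), and the 3 genes most like each member. The members and lists were chosen with earlier results of these data known. Alternatives were no filter, quantile normalization, trended robust priors, row means, omitted arrays, averaged sister clones, lines fitted alone and a replicate block; the labels' clone numbers give the 42MGBA pairing.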

Additional observations from a re-analysis of the deposited data

Results flagged for a closer look

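Each gene's arrays were checked within each line for an array far from the others, 30 checks in all, of which chance alone marks about 1 in 20. EGR1 in the 42MGBA parental array, at 6.19 against 7.36 in the next array, was set apart by a gap of 0.687 of the range of the 6 arrays. FOSL1 in HCT116 knockout clone 21, at 7.86 against 8.39 in the next array, was set apart by a gap of 0.970 of the range of the 4 arrays.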

How the results depend on the processing

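Counts of genes called moved with the model. In H4 the count was 165 with sister clones averaged and 34 with the line fitted alone. In HCT116 it was 11 with trended robust priors, 10 with clones averaged and 3 alone. For the mean of the lines it was 10 with quantile normalization, 38 without the parental arrays, 7 with clones averaged and 3 with the replicate block of 42MGBA parent clones. For H4 minus HCT116 effects it was 14, 97 and 13 with quantile normalization, without parental arrays and with clones averaged, and for H4 minus 42MGBA 83 and 6 with the last 2. Leaving out 1 array gave 169 to 631 genes in H4, 0 to 9 in 42MGBA, 5 (without clone 27) to 77 (without clone 7) in HCT116, 3 to 61 for the mean, 10 to 140 for H4 minus HCT116, 12 to 111 for H4 minus 42MGBA and 2 to 30 for 42MGBA minus HCT116. NR4A2 in HCT116 kept 1.09 with the line alone (adjusted p = 0.558) and ran from 0.88 to 1.30 with 1 array left out. Its mean over the lines was 0.48 with quantile normalization (adjusted p = 0.0761), 0.51 with clones averaged (0.107) and 0.51 with the replicate block (0.0835), and 0.43 to 0.57 with 1 array left out. The replicate block changed no other call of a named gene; H4 and HCT116 share no parent clone between groups and could not be blocked.

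Signs turned for differences that never passed the threshold, and the cause was not tested. Without the parental arrays, EGR1 in H4 was -0.0186, and in 42MGBA FOS was 0.0602, FOSL1 -0.00998 and MMP3 -0.0028. With clones averaged, FOSL1 was 0.012 in H4 and -0.011 in 42MGBA, and NR4A1 -0.000314 in 42MGBA. With the replicate block, FOS was 0.0753 and FOSL1 -0.0535 in 42MGBA, and IER2 in HCT116 was 0.019 with quantile normalization. With 1 array left out, H4 values ran from -0.0502 to 0.37 for EGR1, -0.0333 to 0.18 for FOS, -0.13 to 0.10 for FOSL1, -0.15 to 0.31 for JUN and -0.0474 to 0.0497 for NR4A1. In 42MGBA they ran from -0.13 to 0.0602 for FOS, -0.0373 to 0.16 for FOSL1, -0.012 to 0.015 for NR4A1, -0.011 to 0.13 for IER3, -0.0083 to 0.24 for CLDN7 and -0.0028 to 1.02 for MMP3. In HCT116 they ran from -0.53 to 0.012 for FOSL1, -0.14 to 0.0941 for IER2, -0.0033 to 0.16 for CDX2, -0.0670 to 0.34 for NES and -0.0279 to 0.41 for VIM. The median r between members, centred on group means, was 0.0095 in H4 and 0.26 in 42MGBA. Low signal limits NR4A2 in H4 and 42MGBA, FOS and IER3 in 42MGBA, and EGR3 and NR4A3 in all lines.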
